A study of Mus musculus with 6 samples.

Results

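The core circadian clock was followed in knee articular cartilage through 10 genes, taken by symbol from the 55401 genes of the deposited read count table: Arntl (also called Bmal1), Clock, Npas2, Per1, Per2, Per3, Cry1, Nr1d1, Nr1d2 and Dbp. All 10 had enough reads to be tested. Cartilage came from 3 adseverin knockout samples (cKO 1 to 3) and 3 wild-type samples (WT 1 to 3), all from mice aged 10 weeks, all labelled native articular chondrocyte, and all given tamoxifen at 1.5 mg per 10 g body weight on 5 consecutive days from 8 weeks of age. Adseverin is the actin-severing protein encoded by Scin; the sources used here do not give the driver of its deletion, the deleted part, the strain or the time of day at collection. Nothing in the labels ties a sample to its own mouse, so the tests below see only sample-to-sample spread, some of which may be technical.

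In the mammalian clock, the BMAL1 protein pairs with CLOCK, or with its close relative NPAS2, and switches on genes that carry E-boxes, among them the Per, Cry and Nr1d genes and Dbp. PER and CRY proteins then repress that pair, and the NR1D proteins (REV-ERB alpha and beta) repress Arntl and Npas2 through ROR elements (ROREs), so that Arntl and Npas2 RNA is high when Nr1d, Per and Dbp RNA is low. DBP activates genes with D-boxes, Per genes among them. Chondrocytes run such a clock of their own, and in mice loss of BMAL1 from chondrocytes leads to cartilage degeneration.

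These elements were looked for in the RefSeq promoter windows of 9 of the 10 genes (build GRCm38.p6, 250 bases before to 50 after a transcription start, 13 windows in all), on both strands. No window was available for Per2, so its promoter was not searched. The 4 windows below hold letters of these elements, with each match in capitals and none of them set against levels. They show the RORE pattern searched in 1 of the 2 Arntl windows and D-box letters in that of Per3. E-boxes stand in 1 of the 2 Per1 windows and in that of Cry1. The other Arntl window and the other Per1 window, not shown, held none of the letters searched. The RORE pattern searched had to end in GGTCA. The similar run AAAGTAGGTTA, present in both Arntl windows, was therefore not counted.
Arntl, chr7:113207261-113207560, plus strand: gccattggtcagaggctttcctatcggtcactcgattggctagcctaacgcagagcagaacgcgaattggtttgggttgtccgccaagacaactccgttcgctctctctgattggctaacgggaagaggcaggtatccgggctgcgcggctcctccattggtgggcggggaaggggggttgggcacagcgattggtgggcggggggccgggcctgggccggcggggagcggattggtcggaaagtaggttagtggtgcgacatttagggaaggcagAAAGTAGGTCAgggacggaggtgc
Per3, chr4:151044616-151044915, minus strand: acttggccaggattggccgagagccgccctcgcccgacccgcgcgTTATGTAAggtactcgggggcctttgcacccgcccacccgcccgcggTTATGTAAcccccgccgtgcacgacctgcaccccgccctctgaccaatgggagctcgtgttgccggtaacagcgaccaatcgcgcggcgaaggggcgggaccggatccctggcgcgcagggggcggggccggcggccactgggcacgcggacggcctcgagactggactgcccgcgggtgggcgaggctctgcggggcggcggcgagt
Per1, chr11:69098699-69098998, plus strand: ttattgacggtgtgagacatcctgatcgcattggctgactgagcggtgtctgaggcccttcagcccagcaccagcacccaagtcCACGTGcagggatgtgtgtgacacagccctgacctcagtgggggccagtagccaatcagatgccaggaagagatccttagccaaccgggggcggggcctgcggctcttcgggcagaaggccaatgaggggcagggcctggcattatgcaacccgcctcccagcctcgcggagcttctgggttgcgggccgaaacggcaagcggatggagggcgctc
Cry1, chr10:85185005-85185304, minus strand: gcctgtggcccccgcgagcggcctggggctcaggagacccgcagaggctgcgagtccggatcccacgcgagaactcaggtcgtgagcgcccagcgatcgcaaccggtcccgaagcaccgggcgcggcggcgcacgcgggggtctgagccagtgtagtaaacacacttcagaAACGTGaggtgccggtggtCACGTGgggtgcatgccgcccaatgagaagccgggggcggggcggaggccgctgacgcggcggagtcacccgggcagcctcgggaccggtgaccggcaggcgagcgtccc

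The Arntl window shown held the RORE letters AAAGTAGGTCA, starting 26 bases after the start site. Of the 32851 mouse windows of this length, 0.384% held the RORE pattern searched. The Per3 window held the D-box letters TTATGTAA at 2 places, starting 205 and 158 bases before the start site; TTATGTAA or TTACGTAA occurred in 1.06% of windows. The E-box letters CACGTG stood 166 bases before the Per1 start and 60 before the Cry1 start, against 7.15% of all windows, and the variant CACGTT, read on the opposite strand as AACGTG, stood in the Cry1 window shown and 28 bases before the Nr1d1 start, against 4.68%. The CRE letters TGACGTCA, found in 1.79% of windows, were in 0 of the 13. The windows of Clock, Npas2, Nr1d2 and Dbp held none of these letters, no 2 matches overlapped, and a match is a match of letters only.

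Levels are given as CPM, read counts scaled to library size and TMM-normalised. Read totals ran from 22664828 to 31014996 per cKO library and from 23018642 to 27576134 per WT library. Scin stood at 39.1, 29.9 and 29.4 CPM in cKO 1 to 3, against 186, 186 and 219 CPM in WT 1 to 3, and it was the 1 gene of 16260 tested that passed (log2 fold change -2.59 ± 0.14 SE, Benjamini-Hochberg adjusted p = 6.59e-04 by the quasi-likelihood test of edgeR), so each library matched its label. Summed markers of chondrocytes (7 of 7 genes detected) ran from 26026 to 32080 CPM in cKO and from 24769 to 25284 CPM in WT. Osteoblast and osteocyte markers summed to 28110 to 32204 CPM in cKO and to 25390 to 28431 CPM in WT. That sum is mostly 1 gene, Ibsp, which averaged 27838 ± 3045 CPM in cKO and 24417 ± 1173 CPM in WT (SD, n = 3 each). The chondrocyte sum is mostly Col2a1, which averaged 17598 ± 2603 CPM in cKO and 14840.5 ± 429 CPM in WT (SD, n = 3 each). Of the 7 chondrocyte markers, 3 were higher in every cKO library than in any WT library (Col2a1, Col9a1 and Hapln1), where 6.41% of genes tested were. Lower throughout was 1, where 5.89% of genes tested were. That 1 was Acan, which encodes aggrecan, at 708, 949 and 989 CPM in cKO 1 to 3, against 1273, 1322 and 1440 CPM in WT 1 to 3 (log2 fold change -0.61 ± 0.13, edgeR adjusted p = 0.535). WT 2 stood apart with skeletal muscle markers at 1313 CPM and adipocyte markers at 160 CPM. The other libraries ran from 24.1 to 221 CPM for muscle in cKO and from 29 to 53.6 CPM in WT 1 and WT 3, and for adipocytes, whose marker Lep was at 0 reads in all 6 libraries, from 19.7 to 31.2 CPM in cKO and from 21.8 to 82.7 CPM in WT 1 and WT 3. In such bulk tissue, fewer cells of a type and less RNA per cell cannot be told apart.

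In all 6 libraries the REV-ERB genes Nr1d1 and Nr1d2 and the output gene Dbp were the most abundant of the 10 genes per length, and Arntl and Npas2 were the scarcest. Per kilobase of exon, Nr1d1 ran from 94.1 to 126 CPM per kilobase over the 6 libraries and Dbp from 74.5 to 104, ranges that overlap. Nr1d2 followed at 37.5 to 42.6 CPM per kilobase, below the lowest Dbp value. Per3 (10.2 to 19.7), Cry1 (5.83 to 13) and Per2 (4.02 to 8.28 CPM per kilobase) each overlapped their neighbour in this order. Per1 (2.26 to 3.62) and Clock (2.14 to 2.72 CPM per kilobase) overlapped as well. Arntl (0.606 to 1.47) and Npas2 (0.316 to 1.68 CPM per kilobase) were the lowest and overlapped each other. On the same per-length scale the ratio of Nr1d1 to Arntl was 87.6, 68.2 and 74 in cKO 1 to 3, against 104, 155 and 176 in WT 1 to 3. The ratio of Dbp to Arntl was 66.1, 70.5 and 65.8 in cKO 1 to 3, against 82.1, 130 and 153 in WT 1 to 3. So every library stood with Arntl far under both genes, and the ratios of the groups did not overlap; the ratios carry the Arntl difference described below and are not separate evidence of it.

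**Figure D1:**
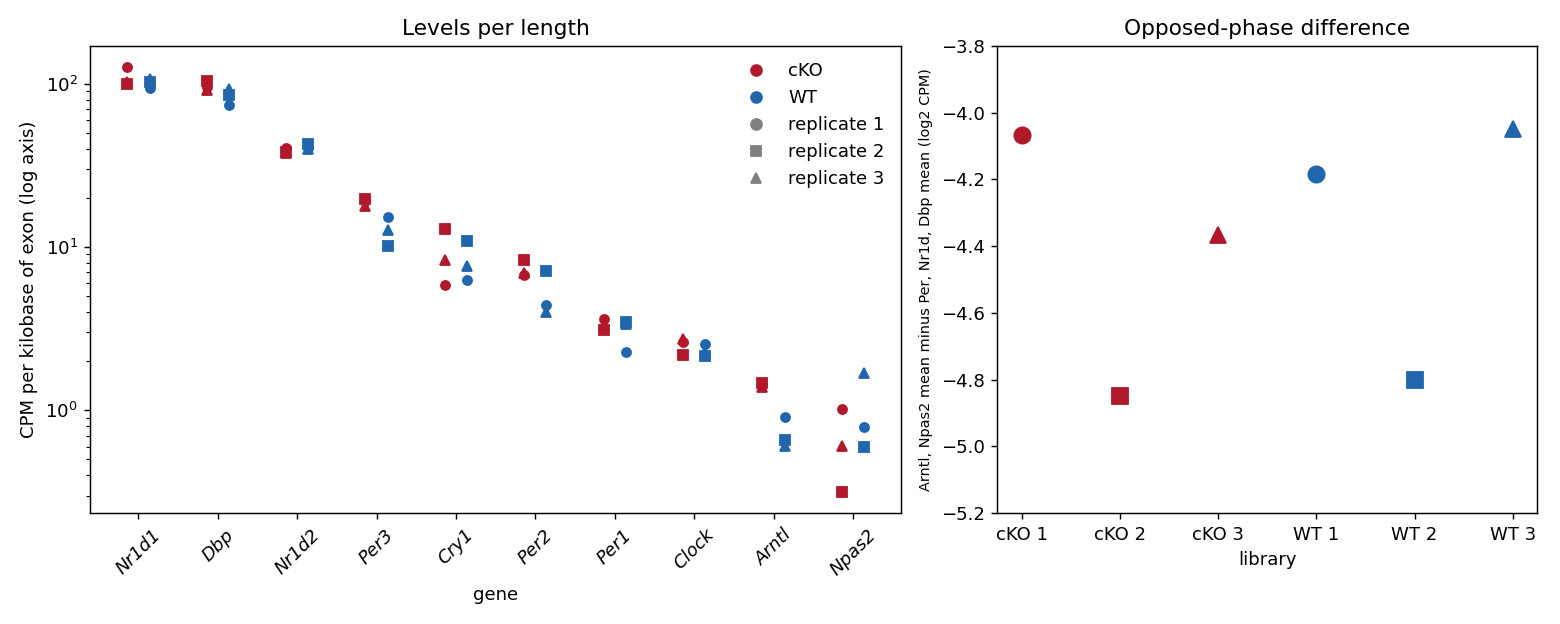
Left, level per kilobase of exon (CPM per kilobase, log axis) of each of the 10 genes in each library, cKO in red left of WT in blue; right, mean log2 CPM of Arntl and Npas2 minus the mean log2 CPM of Per1, Per2, Per3, Nr1d1, Nr1d2 and Dbp in each library (axis cut to -5.2 to -3.8). Nr1d1 and Dbp lie highest and Arntl and Npas2 lowest in every library, and the difference on the right runs from -4.85 to -4.07 in cKO and from -4.80 to -4.05 in WT.

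The Arntl and Npas2 side set against the Per, Nr1d and Dbp side gave no separation of the groups. The mean log2 CPM of Arntl and Npas2 minus that of the 6 opposed genes was -4.07, -4.85 and -4.37 in cKO 1 to 3, against -4.18, -4.80 and -4.05 in WT 1 to 3. The values interleave, and the group means were -4.43 ± 0.39 in cKO and -4.34 ± 0.40 in WT (SD, n = 3 each), a difference of -0.08 on the log2 scale with no test. The scale is not corrected for length, so only differences between libraries can be read from it. Both sides averaged higher in cKO, with no test. The 6 opposed genes averaged 6.95, 6.92 and 6.85 in cKO 1 to 3, against 6.56, 6.74 and 6.67 log2 CPM in WT 1 to 3, without overlap. The activator mean was 2.88, 2.07 and 2.48 in cKO 1 to 3, against 2.37, 1.94 and 2.62 log2 CPM in WT 1 to 3, with overlap. The overlap of the activator mean came with Npas2, since Arntl by itself did not overlap between the groups. With Arntl alone set against the 6 opposed genes, the values were -3.50, -3.44 and -3.45 in cKO 1 to 3. They were -3.77, -4.41 and -4.45 in WT 1 to 3, so these groups did not overlap. The difference between the group means of that contrast was 0.74 in place of -0.08, and it carries the Arntl difference described below.

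Of the 10 clock genes, 0 passed an adjusted p of 0.05 in edgeR, where 0.00615% of all genes tested did. At an unadjusted p under 0.05 there were 3 (Arntl, Per3 and Per2), where 6.5% of all genes tested were called. DESeq2 called 1 of the 10, Per3, where it called 0.444% of genes, and limma-voom and limma-trend called 0. Values of 2 genes, Arntl and Per3, were higher in every cKO library than in any WT library, where 6.41% of genes tested were, and 0 were lower throughout, where 5.89% were. Without WT 2, a count added after seeing the data, 3 of the 10 were higher throughout (Per2 as well), where 11.0% of genes tested were. The log2 fold change, cKO minus WT, was above 0 for 8 of the 10 genes, with a median of 0.14. Over all genes tested the median was 0.00 and 50.6% were above 0. The 2 below 0 were Npas2 and Nr1d2.

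Arntl encodes BMAL1, the obligate partner of the activating pair (ENSMUSG00000055116, GRCm38 chromosome 7, 113207465 to 113314126, plus strand). It stood at 10.8, 11.1 and 10.4 CPM in cKO 1 to 3, against 6.83, 4.96 and 4.56 CPM in WT 1 to 3. The cKO libraries lay close together and above all WT libraries. These values rest on 245, 336 and 249 reads in cKO and on 192, 113 and 120 reads in WT. The level in cKO was 1.98 times that in WT (log2 fold change 0.98 ± 0.23 SE, 95% interval 0.45 to 1.51), rank 68 of 16260 by p in edgeR (Benjamini-Hochberg adjusted p = 0.605). With single libraries left out the log2 fold change ran from 0.87 to 1.17. DESeq2 gave an adjusted p of 0.0536. The summed chondrocyte markers were also higher in cKO without overlap, a sum carried by Col2a1, while Acan was lower in every cKO library; their part in the Arntl difference was not tested.

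Clock and Npas2 encode the alternative partners of BMAL1. Clock stood at 36.1, 30.1 and 37.4 CPM in cKO 1 to 3, against 34.8, 29.4 and 31 CPM in WT 1 to 3. The groups overlapped (log2 fold change 0.12 ± 0.14, 95% interval -0.19 to 0.43). It was 0.059 without cKO 3 and 0.060 without WT 2, against 0.21 without cKO 2 and 0.19 without WT 1. Npas2 stood at 4.91, 1.51 and 2.89 CPM in cKO 1 to 3, against 3.81, 2.85 and 8.06 CPM in WT 1 to 3, on 46 to 212 reads per library. It was the most variable of the 10 genes, with a 5.32-fold span between cKO 2, the lowest, and WT 3, the highest, and the groups overlapped. Its log2 fold change of -0.67 ± 0.53 (95% interval -1.88 to 0.55, edgeR adjusted p = 0.894) ran from -1.16 to -0.11 with single libraries left out (without cKO 1 and without WT 3; -0.33 without cKO 2). Per kilobase of exon, Clock exceeded Npas2 by 2.57, 6.93 and 4.52 times in cKO 1 to 3, against 3.19, 3.60 and 1.35 times in WT 1 to 3.

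**Figure D2:**
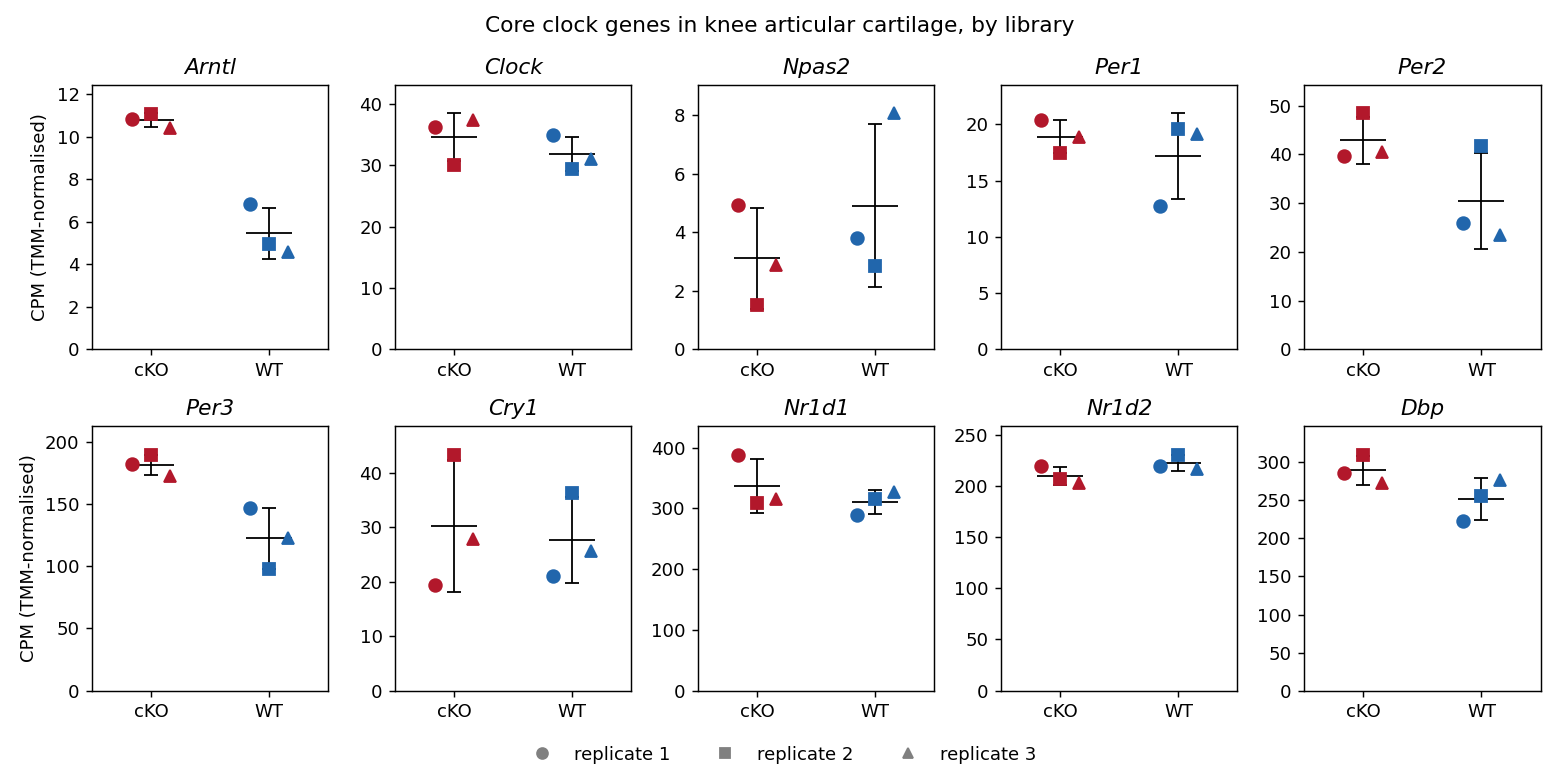
CPM of the 10 clock genes (y axis from 0, a separate scale for each gene) in the 3 cKO libraries (red) and the 3 WT libraries (blue), with marker shapes for replicate numbers and black bars for the mean and SD. In the Arntl and Per3 panels all cKO points lie above all WT points; in the other 8 panels the groups overlap.

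Per3 was the repressor gene with the clearest difference; its role in the core loop is less central than that of Per1 and Per2. Per3 (ENSMUSG00000028957, GRCm38 chromosome 4, 151003652 to 151044665, minus strand) stood at 183, 189 and 173 CPM in cKO 1 to 3, against 147, 98 and 123 CPM in WT 1 to 3. Every cKO library exceeded every WT library, and WT 1 was the nearest. The level in cKO was 1.48 times that in WT (log2 fold change 0.56 ± 0.14 SE, 95% interval 0.25 to 0.88), rank 87 of 16260 by p in edgeR (adjusted p = 0.605). DESeq2 gave an adjusted p of 0.0333. The log2 fold change was 0.42 without WT 2, the library with the muscle and adipocyte markers and the lowest Per3 value, and 0.71 without WT 1.

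Per1 and Per2 encode the main PER repressors, and many signals induce Per1 directly. Per2 stood at 39.7, 48.5 and 40.5 CPM in cKO 1 to 3, against 25.9, 41.7 and 23.6 CPM in WT 1 to 3. WT 2 lay among the cKO libraries and the other WT libraries below them. The log2 fold change was 0.50 ± 0.22 (95% interval 0.00 to 0.997, edgeR adjusted p = 0.765), and with single libraries left out it ran from 0.35 without WT 3 to 0.79 without WT 2. Per1 stood at 20.4, 17.4 and 18.9 CPM in cKO 1 to 3, against 12.7, 19.6 and 19.2 CPM in WT 1 to 3. WT 1 was low and the other 5 libraries lay together (log2 fold change 0.14 ± 0.19, 95% interval -0.30 to 0.58). Without WT 1 it was -0.040; without cKO 1 it was 0.084, and without WT 2 and WT 3 in turn it was 0.24 and 0.23.

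Cry1, the partner of the PER proteins, stood at 19.5, 43.4 and 27.9 CPM in cKO 1 to 3, against 21, 36.3 and 25.6 CPM in WT 1 to 3. Each group spanned a low, a middle and a high library, and the log2 fold change was 0.13 ± 0.30 (95% interval -0.56 to 0.83). It was -0.22 without cKO 2 and -0.035 without WT 1. The libraries highest in Cry1, cKO 2 and WT 2, were the lowest in the difference between the Arntl and Npas2 side and its opposed side. That order came with Npas2. With Arntl alone on its side, cKO 2 was the highest library at -3.44, and WT 2 at -4.41 lay above WT 3 at -4.45.

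The REV-ERB genes were abundant in every library. Nr1d2 (REV-ERB beta) stood at 219, 206 and 203 CPM in cKO 1 to 3, against 220, 230 and 216 CPM in WT 1 to 3. Its highest library exceeded its lowest by 1.14 times, the smallest span of the 10 genes, and the log2 fold change was -0.09 ± 0.07 (95% interval -0.26 to 0.09). Nr1d1 (REV-ERB alpha) stood at 389, 309 and 315 CPM in cKO 1 to 3, against 290, 315 and 327 CPM in WT 1 to 3. cKO 1 was high and the other 5 libraries overlapped (log2 fold change 0.12 ± 0.11, 95% interval -0.12 to 0.36). Without cKO 1 the log2 fold change was 0.0072, and with other single libraries left out it ran from 0.066 (without WT 1) to 0.18 (without cKO 2). Of the 3077 exonic bases of Nr1d1, 263 (8.55%) overlap exons of Thra on the other strand, and the sources used here do not say whether the counting used strand, so reads there cannot be assigned with certainty. Thra averaged 54.1 ± 2.65 CPM in cKO and 49.2 ± 2.2 CPM in WT (SD, n = 3 each).

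Dbp encodes a transcription factor of the PAR bZIP family whose RNA is a direct output of the clock. It stood at 285, 310 and 273 CPM in cKO 1 to 3, against 223, 256 and 277 CPM in WT 1 to 3. WT 3 lay within the cKO range and the other WT libraries below it. The log2 fold change was 0.20 ± 0.10 (95% interval -0.03 to 0.43, edgeR adjusted p = 0.806), and it was 0.11 without WT 1. Exons of Sphk2, on the other strand, overlap 539 of its 2993 exonic bases (18.0%). Sphk2 averaged 11.9 ± 0.594 CPM in cKO and 11.3 ± 1.42 CPM in WT (SD, n = 3 each).

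**Figure D3:**
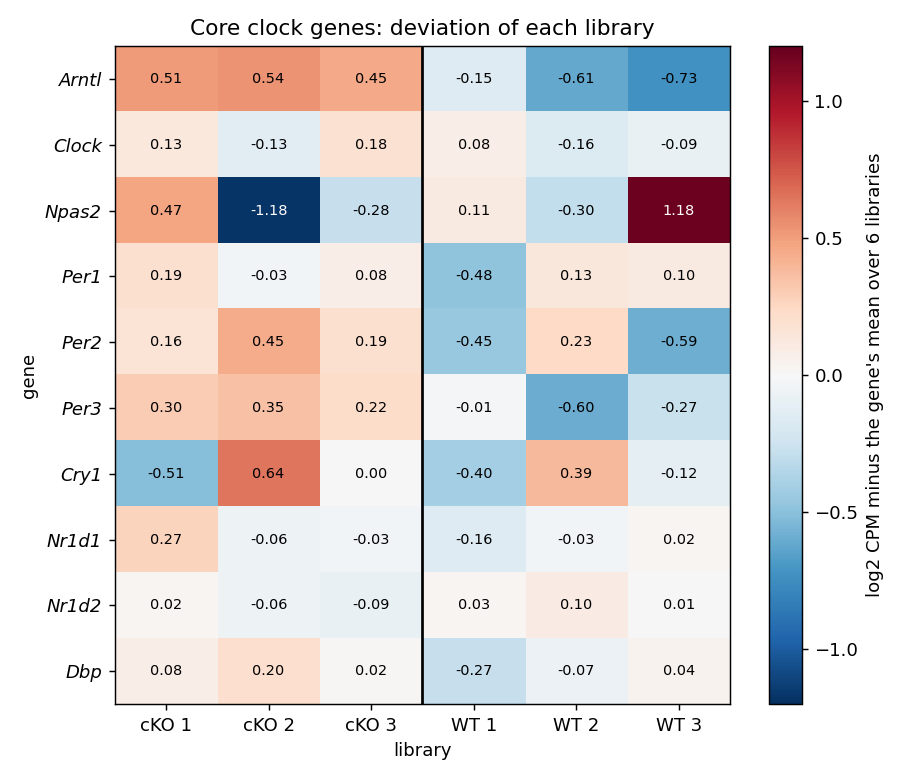
Log2 CPM of each of the 10 clock genes (rows) in each library (columns, cKO left of WT) minus that gene's mean over the 6 libraries. Arntl and Per3 are above their mean in all 3 cKO libraries and below it in all 3 WT libraries, Npas2 runs from -1.18 in cKO 2 to 1.18 in WT 3, and Nr1d2 stays between -0.09 and 0.10.

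Among 19 other genes of the clock, 0 passed an adjusted p of 0.05 in edgeR in either direction. An unadjusted p under 0.05 was reached by 1 (Hlf), where 6.5% of all genes tested did so. The log2 fold change was above 0 for 14, with a median of 0.11, where 50.6% of all genes tested were above 0. Values of 3 (Rora, Fbxl21 and Usp2) did not overlap, all higher in cKO, against 6.41% of genes tested. Hlf, a PAR bZIP relative of Dbp, stood at 10.7, 18.2 and 20.7 CPM in cKO 1 to 3, against 10.4, 10.7 and 8.51 CPM in WT 1 to 3. cKO 1 lay with the WT libraries, and the log2 fold change was 0.74 ± 0.26 (adjusted p = 0.700). The third PAR bZIP gene, Tef, averaged 254 ± 13.8 CPM in cKO and 235 ± 15.1 CPM in WT (SD, n = 3 each). Bhlhe41 (DEC2), a repressor that competes for E-boxes, averaged 482 ± 52.7 CPM in cKO and 388 ± 85.4 CPM in WT, and Ciart, a repressor of the activating pair, averaged 27.9 ± 3.65 CPM in cKO and 23.1 ± 3.82 CPM in WT. Rora, an activator at ROREs, stood at 128, 122 and 125 CPM in cKO 1 to 3, against 105, 120 and 120 CPM in WT 1 to 3 (log2 fold change 0.12 ± 0.09). Usp2, a deubiquitinase with rhythmic RNA, had a log2 fold change of 0.34 ± 0.17.

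**Figure D4:**
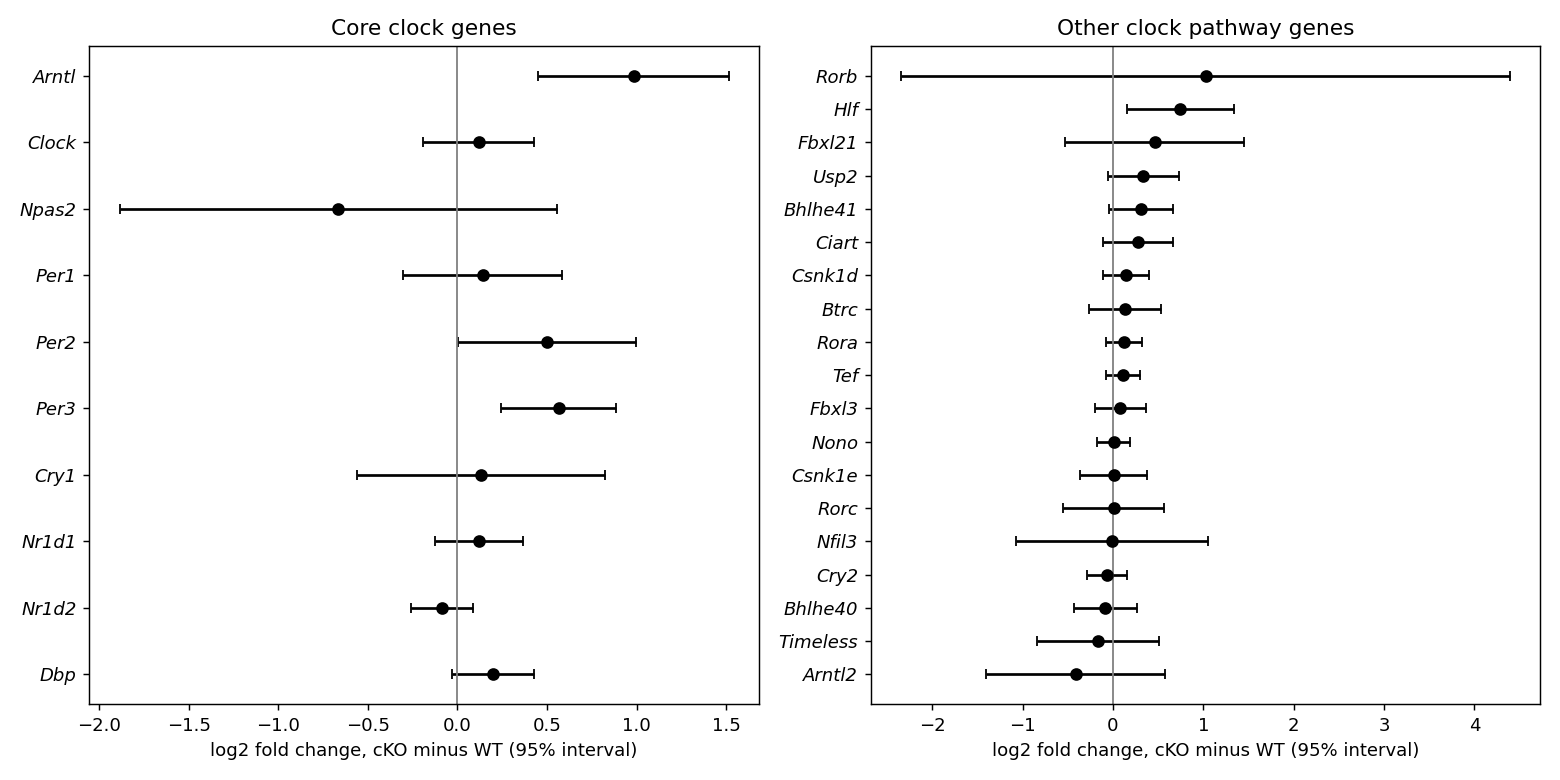
Log2 fold change, cKO minus WT, with its 95% interval from the edgeR fit, for the 10 core clock genes (left) and 19 other clock pathway genes (right, ordered by value). Intervals of Arntl, Per2, Per3 and Hlf lie above 0 before adjustment; after adjustment over all genes tested none of the 29 passed.

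Genes that share inducers with Per1 did not pass after adjustment, though several had small unadjusted p-values. Of 13 immediate early genes, 0 passed an adjusted p of 0.05 in edgeR, and 5 had an unadjusted p under 0.05 (Egr2 higher; Fosl2, Jun, Jund and Dusp1 lower in cKO), where 6.5% of all genes tested did. Values of Fosl2 and Jund were lower in cKO without overlap, where 5.89% of genes tested were, and those of Egr3 higher, where 6.41% were. Of the 13, 8 were below 0 and the median log2 fold change was -0.30; their summed level ran from 1390 to 2697 CPM in cKO and from 1817 to 2503 CPM in WT. Fosl2 and Jund, both AP-1 subunits, averaged 30 ± 1.65 and 32.8 ± 3.83 CPM in cKO, against 38.1 ± 2.78 and 43.7 ± 6.89 CPM in WT (SD, n = 3 each). Of 7 glucocorticoid-responsive genes, 0 passed and 2 (Zbtb16 and Fkbp5, both higher) had an unadjusted p under 0.05, where 6.5% of all genes tested did. Their median was 0.14, and 5 were above 0, where 50.6% of all genes tested were. Zbtb16 was the 1 gene of the 7 without overlap of the groups, higher in cKO, where 6.41% of genes tested were. Zbtb16 averaged 18.7 ± 5.13 CPM in cKO and 12.5 ± 2.16 CPM in WT, and Fkbp5 averaged 36.3 ± 9.41 CPM in cKO and 24.8 ± 6.42 CPM in WT. Their part in the values of the clock genes was not tested.

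Correlation with Arntl in log2 CPM was taken for the other 9 clock genes over the 6 libraries. Pearson's r was 0.93 for Per3, 0.63 for Per2, 0.53 for Clock, 0.46 for Dbp and 0.28 for Nr1d1. It was 0.049 for Per1, -0.0016 for Cry1, -0.53 for Npas2 and -0.67 for Nr1d2. Spearman's rho ran from -0.49 for Npas2 to 0.94 for Per3, with Per2 and Dbp next to Per3 at 0.60 each. Of the 9 relations 0 passed 0.05 after Benjamini-Hochberg adjustment over the 9, the smallest adjusted p being 0.0875 for r and 0.15 for rho, both for Per3 (two-sided exact permutation test). Arntl separates the groups, so these values carry the difference between groups. With the group means removed, r was 0.71 for Per3, 0.41 for Clock, -0.025 for Nr1d2, -0.13 for Per2 and -0.32 for Cry1. It was then -0.33 for Npas2, -0.42 for Nr1d1, -0.77 for Dbp and -0.93 for Per1, so Per1, Per2, Nr1d1 and Dbp took the opposite sign from that over all 6 libraries. These within-group values have no p. Arntl varied little among the cKO libraries (3.45, 3.48 and 3.39 log2 CPM) and more among WT 1 to 3 (2.79, 2.33 and 2.21). The within-group r therefore rests mostly on WT 1 set against WT 2 and WT 3, and WT 1 was the lowest library in Per1 and Dbp.

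Genes most like Arntl over the 6 libraries were ranked by Pearson's r of log2 CPM among 2923 genes with a mean of at least 5 CPM and at least 0.5 times the SD of Arntl. Since Arntl separated the groups, a high rank here mostly repeats that separation, and r is given as a description with no p. Bnip1 (0.99), Osbpl7 (0.98), Gas8 (0.98), Mad2l1 (0.97) and Slc25a37 (0.97) ranked highest. Of the clock genes in this ranking, Per3 stood at rank 23, Per2 at rank 416 and Cry1 at rank 1585. F3 (-0.96), Fscn1 (-0.95), Ddit4 (-0.95), Lrp8 (-0.95) and Ubap2 (-0.95) ranked lowest. Mad2l1, a spindle checkpoint gene, averaged 24.3 ± 2.43 CPM in cKO and 14 ± 2.17 CPM in WT, and Ddit4, a stress-induced inhibitor of mTORC1, averaged 3.33 ± 0.302 CPM in cKO and 7.56 ± 2.31 CPM in WT (SD, n = 3 each). By the same rule over 9811 genes, Msrb2 (0.99), Cep19 (0.99), Pdgfrl (0.99), Ino80 (0.99) and Rsu1 (0.98) were most like Dbp, and Stab1 (-0.99), Mrps5 (-0.98), Cox19 (-0.97), Nfkbie (-0.97) and Snx18 (-0.97) ran most opposite to it. Of the clock genes, Per1 came nearest to Dbp, at rank 709 (r = 0.69).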

How the data were processed

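RNA from 6 knee cartilage samples was sequenced from full-length cDNA made with a very low input kit, per the labels' protocols. The submitters' processing notes name the build GRCm38 and the tools HISAT2 2.2.1 and featureCounts 2.0.1, beside DESeq2 1.30.1, R 4.0.5 and FastQC 0.11.9. The sources used here do not give the annotation release, the use of strand or the handling of multi-mapping reads. The authors deposited raw read counts for 55401 Ensembl genes, used for the main test. They also deposited a normalized signal for 23239 genes, equal to the counts divided by 1 factor per library: whole reads were recovered for 100% of values within 0.001 of a read, 0 differed from the counts, and edgeR on them called 1 gene. Symbols, coordinates and exon lengths came from GENCODE M21 and its name table (55141 identifiers matched).

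Genes were filtered with filterByExpr, leaving 16260, scaled by TMM and tested with edgeR 4.0.16 (glmQLFit, glmQLFTest, R 4.3.3) with group as the only term, and p-values were adjusted by Benjamini-Hochberg over all of them. The scripts were tested on simulated data. SE is the log2 fold change divided by the square root of F. Log2 CPM used a prior count of 2. Alternatives used DESeq2 1.42.0, limma 3.58.1, other scalings and filters, the replicate number as a block, and left-out libraries; edgeR on the recovered reads and the count of genes not overlapping without WT 2 were added after seeing the data. Pairs of libraries of a group differed by 31.4 to 36.5 chi-square per degree of freedom over genes with at least 50 reads. None was therefore the same library sequenced again. Separate preparations of the same RNA or mouse cannot be told apart from separate mice by this value. Precision rests on the reads per gene, given where low.

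The members, lists and naming rule were chosen with earlier results of these data known. Named are all 10 members, Scin, and of the other clock genes the 6 with the smallest p. Of each stimulus list the 2 with the smallest p are named, and the 5 genes most and least like Arntl and Dbp. Thra, Sphk2, Fbxl21, Lep, Col2a1, Acan, Col9a1, Hapln1, Ibsp, Jun, Dusp1, Egr2 and Egr3 were named after their values were seen. Correlations with Arntl were tested by exact permutation of pairings and adjusted over 9 relations.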

Additional observations from a re-analysis of the deposited data

How the results depend on the processing

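With DESeq2, 40 genes were called higher and 42 lower in cKO and 1 of the 10 clock genes was called (Per3); with no filter on low counts 1 gene was called higher and 2 lower, and with single libraries left out 0 higher and 1 to 2 lower. The cause of these moves was not tested. The clock genes were not called in the other alternatives, the lowest adjusted p being 0.0333 for Per3 and 0.0536 for Arntl, both with DESeq2. Arntl kept a log2 fold change of 0.87 to 1.17 and Per3 of 0.42 to 0.71 with single libraries left out, and 0.97 to 1.004 and 0.55 to 0.58 under the other alternatives. With single libraries left out Per1 ran from -0.040 (without WT 1) to 0.24 and Cry1 from -0.22 (without cKO 2; -0.035 without WT 1) to 0.37. The difference between groups in the Arntl and Npas2 side minus the opposed side was 0.74 with Arntl alone on its side, and ran from -0.31 to 0.13 with single libraries left out, so its sign rests on single libraries. With the replicate number as a block, 0 genes were called higher, 1 lower and 0 clock genes. Same-numbered libraries correlated at -0.02, 0.07 and 0.02 in their deviations from the group means, and not each correlated best with its own number, so the numbers were not taken as pairs. Of the correlations with Arntl, 0 passed under other scalings. Removing group means reversed r for Per1 (-0.93), Per2 (-0.13), Nr1d1 (-0.42) and Dbp (-0.77), and left 0.71 for Per3. Leaving out WT 2 and WT 3, the libraries farthest from the median of Arntl, reversed r for Clock (-0.16) and Cry1 (0.46). That setting keeps WT 1 alone beside the cKO libraries, which lie close together in Arntl, so r there rests mostly on WT 1. For Per3 r was then 0.97, but it was also 0.96 for Per2, 0.96 for Dbp and 0.94 for Per1. It was 0.59 for Nr1d1, -0.35 for Npas2 and -0.55 for Nr1d2. Depth limits Npas2 and Arntl most, at 46 to 212 and 113 to 336 reads per library.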

Other observations

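The level of Per3 relative to Arntl, per kilobase of exon, was 13.2, 13.4 and 13 in cKO 1 to 3, against 16.9, 15.5 and 21.1 in WT 1 to 3. This ratio carries the Arntl difference described above and is not separate evidence of it. Per3 itself was higher in every cKO library than in any WT library. Relative to Per2, the level of Per3 was 2.80, 2.38 and 2.60 in cKO 1 to 3, against 3.46, 1.43 and 3.18 in WT 1 to 3. So WT 2 was low in Per3 while its Per2 lay with the cKO libraries.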
